A study of Mus musculus with 4 samples.

Results

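The metallothioneins Mt1, Mt2 and Mt3 were followed across the cell types of the mouse hippocampus 7 days after a transient occlusion of both common carotid arteries (2VO). The members were taken by symbol and make up 3 of the 31053 genes listed. The fourth mouse metallothionein, Mt4, had 1 UMI (a counted RNA molecule) in all 14147 cells and is not described further. The expression of the 3 genes was counted in single cells and summed per cell class and library.

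The series holds 4 libraries of C57BL/6 mice, 2 labelled sham and 2 labelled 2VO, each from the hippocampus of 1 mouse. In the 2VO mice both common carotid arteries were clamped for 50 min under isoflurane, and in the sham mice the clamps were released at once. The labels give an age of 12 weeks, while the methods give males of 6 to 10 weeks. The libraries used were both sham ones and 2VO 1. As 2VO replicate 2 was not analysed here, each comparison below sets 1 ischemic mouse against 2 sham mice. No genetic change or drug is given for either group, and both shared the strain and the pronase digestion of the tissue.

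Sham 1, sham 2 and 2VO 1 held 65287386, 40459614 and 18754480 UMIs, and 5109, 5126 and 3912 cells with at least 650 genes, at medians of 8191, 5249 and 2311 UMIs per cell. The shallow 2VO library therefore carries the larger counting error. Pairs of libraries shared 12 to 15 barcode sequences. The cells were clustered without the metallothionein genes, and 28 of 29 clusters were named from marker genes as 14 classes. These were cells like astrocytes (ASTs), ependymal cells (EPNs), choroid plexus epithelial cells (CPECs), oligodendrocyte precursors (OPCs), oligodendrocytes (OLGs), neural progenitors (NPCs), glutamatergic neurons (GLUTNs), Cajal-Retzius neurons (CRNs), microglia, macrophages, pericytes (PERs), endothelial cells (ECs), vascular leptomeningeal cells (VLMCs) and smooth muscle cells of vessels (VSMCs). The summed level of the 10 AST markers was 23975 to 25584 counts per 1000000 UMIs (CPM) in ASTs of the 3 libraries, and at most 1854 CPM in any other class. The remaining cluster, with markers of GABAergic and glutamatergic neurons together, stayed unnamed.

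Metallothioneins are small proteins in which closely spaced cysteines hold zinc and copper ions, and by which cells buffer free metal and scavenge oxidants. Mt1 and Mt2 are switched on in most tissues by zinc through the transcription factor MTF1, which binds metal response elements, and also by glucocorticoids, cytokines and oxidative stress. Mt3 is the brain form, known first as a growth inhibitory factor, and responds little to metals. In the brain, astrocytes are known for Mt1 and Mt2, and zinc-rich neurons and astrocytes for Mt3.

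All 3 genes lie on the forward strand of chromosome 8 (GENCODE M21 annotation of GRCm38). Mt3 (ENSMUSG00000031760) lies at chr8:94152607-94154146, Mt2 (ENSMUSG00000031762) at chr8:94172664-94173568 and Mt1 (ENSMUSG00000031765) at chr8:94179082-94180327, and each is protein-coding with 3 exons in its first listed transcript. The end of Mt2 and the start of Mt1 are 5514 bases apart. The coding sequences of these transcripts are shown, start codon to stop codon, because they hold what defines the family, with every in-frame cysteine codon (TGC or TGT) in capitals.
Mt1: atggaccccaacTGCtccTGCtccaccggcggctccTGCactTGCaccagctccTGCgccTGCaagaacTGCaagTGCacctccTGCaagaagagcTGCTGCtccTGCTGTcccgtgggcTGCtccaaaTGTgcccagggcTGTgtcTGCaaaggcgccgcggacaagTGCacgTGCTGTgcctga
Mt2: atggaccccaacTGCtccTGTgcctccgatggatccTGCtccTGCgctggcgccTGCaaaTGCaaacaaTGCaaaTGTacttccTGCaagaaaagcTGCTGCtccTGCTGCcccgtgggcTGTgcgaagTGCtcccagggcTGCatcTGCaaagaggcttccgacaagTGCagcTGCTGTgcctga
Mt3: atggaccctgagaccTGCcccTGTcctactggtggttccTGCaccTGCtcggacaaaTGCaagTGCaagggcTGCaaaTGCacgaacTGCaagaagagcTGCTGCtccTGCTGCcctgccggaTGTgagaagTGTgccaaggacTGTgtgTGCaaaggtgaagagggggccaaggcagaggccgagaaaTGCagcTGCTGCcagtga
Each member has 20 cysteine codons, out of 61 amino acid codons in Mt1 and Mt2 and 68 in Mt3, which is 32.8% and 29.4% of the codons. The coding sequences of Mt1 and Mt2 were identical at 148 of 186 aligned bases (79.6%), and Mt3 matched Mt1 at 68.9% and Mt2 at 69.2% of aligned bases. The libraries read the 3′ ends of the RNAs. Over the last 200 bases of the transcripts the longest exact run shared by any pair was 12 bases, so the counted ends of the members differ in sequence.

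The 250 bases before the RefSeq start of each gene (GRCm38.p6, forward strand) are shown because Mt1 and Mt2 are textbook targets of MTF1. Capitals mark matches on either strand to the core letters TGCACNC or TGCGCNC of the metal response element.
Mt1, chr8:94178839-94179088: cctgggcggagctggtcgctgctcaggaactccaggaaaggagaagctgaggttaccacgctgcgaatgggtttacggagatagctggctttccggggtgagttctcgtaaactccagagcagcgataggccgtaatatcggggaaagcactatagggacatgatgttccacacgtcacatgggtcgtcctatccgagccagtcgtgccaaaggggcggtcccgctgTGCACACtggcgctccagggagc
Mt2, chr8:94172368-94172617: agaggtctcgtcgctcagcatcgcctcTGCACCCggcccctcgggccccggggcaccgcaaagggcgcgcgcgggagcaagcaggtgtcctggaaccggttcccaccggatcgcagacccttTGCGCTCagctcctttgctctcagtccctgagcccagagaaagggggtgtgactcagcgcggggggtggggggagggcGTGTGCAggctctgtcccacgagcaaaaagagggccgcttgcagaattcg
Mt3, chr8:94152357-94152606: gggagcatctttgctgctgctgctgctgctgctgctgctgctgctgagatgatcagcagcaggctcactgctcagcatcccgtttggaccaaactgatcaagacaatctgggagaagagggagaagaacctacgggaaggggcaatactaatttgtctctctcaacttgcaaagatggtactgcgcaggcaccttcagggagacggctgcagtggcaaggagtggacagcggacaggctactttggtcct
Mt1 had 1 match, Mt2 had 3 and Mt3 had 0 in these windows. The windows depend on the start chosen, and in Mt2 the GENCODE start lies 46 bases past the RefSeq start. Matches outside the windows were not counted, so a low count does not mean that a promoter lacks such elements. Of 32851 mouse promoters of the same length, 21.4% held at least 1 match and 1.26% held at least 3. A match is a description of the letters and not a measured binding site.

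Mt1 was the most abundant in ASTs, at 10850 CPM in sham 1, 11635 in sham 2 and 10227 in 2VO 1, with a mean of 10904 ± 706 (SD, n = 3 libraries). EPNs, the ciliated cells that line the ventricles, followed at 9072, 12920 and 7668 CPM. The ranges of these glial classes overlapped, and both lay above every other class. Macrophages came next at 2480 ± 503 CPM, in sham 1 with 48.0% of the UMIs from 1 cell, a level whose range overlapped that of VSMCs (1302 ± 568 CPM). OLGs, CPECs, ECs, VLMCs and microglia had means between 838 and 1147 CPM, and each overlapped its neighbour in the order. Neurons were the lowest, with 251 ± 75.7 CPM in GLUTNs and 235 ± 134 CPM in CRNs. Each mean here is over the 3 libraries, 2VO 1 included. A UMI is counted once whatever the length of its RNA, so length does not enter when levels of different genes are set side by side. Other differences between the genes in how well their RNA was captured were not tested.

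Mt2 followed the same upper order at a lower level. ASTs had 1796, 1653 and 2019 CPM and EPNs 1330, 1755 and 991 CPM in sham 1, sham 2 and 2VO 1, while no other class had a mean above 173 CPM (ECs, 173 ± 66.5). At the bottom of the order were GLUTNs with 27.7 ± 15.4 CPM and CRNs with 16.8 ± 13.7 CPM, the latter from 1 to 3 UMIs per library. From the lowest to the highest named class, the mean of Mt2 differed 109-fold and that of Mt1 46.4-fold.

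Mt3 had another order. EPNs (12288, 13825 and 4183 CPM in sham 1, sham 2 and 2VO 1) and ASTs (9099, 9450 and 6319 CPM) were again at the top, and CPECs, the epithelium that secretes cerebrospinal fluid, joined them at 6061, 6937 and 3056 CPM. The ranges of EPNs and ASTs overlapped, as did those of ASTs and CPECs. GLUTNs came next at 1319, 2170 and 817 CPM, apart from CPECs above and OPCs (584 ± 135 CPM) below. NPCs (292 ± 14.0 CPM) and CRNs (403 ± 37.6 CPM) lay between the OPCs and a floor of vascular, immune and OLG classes with means of 94.0 to 133 CPM. GLUTNs and CRNs were thus at the bottom of the order for Mt1 and Mt2 and in its upper part for Mt3. In the smaller floor classes the levels came from few molecules, for example 12, 62 and 19 Mt3 UMIs in VLMCs. The larger ones held more, with 1165, 990 and 369 Mt3 UMIs in OLGs and 413, 803 and 558 in ECs. Ttr, an RNA of CPECs, was also seen in 93.2% to 100% of the cells of each of these classes, and it had 7.74 to 43.0 UMIs for each Mt3 UMI there. The same ratio was 34.1, 28.7 and 66.6 in CPECs and at most 1.46 in ASTs, EPNs and GLUTNs. In sham 1, sham 2 and 2VO 1 it was 3.15, 2.31 and 10.2 in CRNs and 3.81, 2.41 and 18.1 in NPCs. The 2VO 1 ratios of CRNs and NPCs thus fell within the range of the floor classes. The part of free CPEC RNA in the levels of CRNs, NPCs and the floor classes was not tested, and the floor levels are not read as expression.

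**Figure D1:**
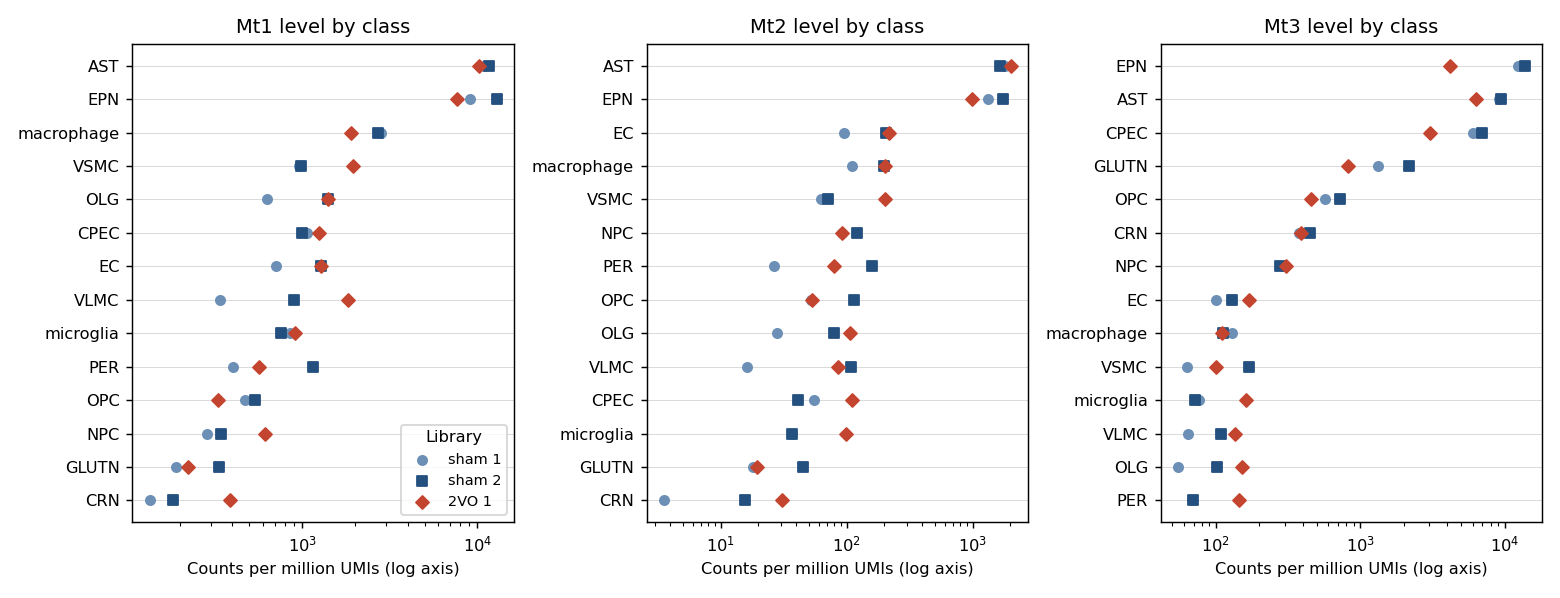
Level of each metallothionein (CPM of the class, log axis) in 14 cell classes, ordered by the mean over 3 libraries, with 1 point per library and no error bar. Mt1 and Mt2 are highest in ASTs and EPNs, CPECs and GLUTNs follow ASTs and EPNs for Mt3, the 2VO 1 point lying left of both sham points in all 4 leading Mt3 classes.

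The share of cells with at least 1 UMI gave the same picture for the leading classes. Mt3 was seen in 99.8%, 99.0% and 96.1% of CPECs of sham 1, sham 2 and 2VO 1, at medians of 39319, 28224 and 6392 UMIs per cell. PERs, near the bottom of the Mt3 order, give the background: Mt3 was seen in 20.2%, 20.6% and 25.9% of them at medians of 2629, 2835 and 1761 UMIs, and Ttr was at 1322, 1086 and 3408 CPM. After each cell was thinned to 1000 UMIs, the CPEC shares were 94.7%, 94.9% and 85.8% (exact 95% intervals 92.6 to 96.4, 91.8 to 97.0 and 82.2 to 88.8), and the PER shares were 10.2%, 7.17% and 11.2%. The 2VO 1 share in CPECs lay below both sham intervals. These intervals cover counting error only. Thinning left out 4 CPECs and 6 PERs of 2VO 1, 0 CPECs of the sham libraries, and 2 and 1 PERs of sham 1 and sham 2.

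The molecules were spread unevenly over the classes. ASTs and EPNs together were 5.46%, 5.87% and 1.23% of the cells of sham 1, sham 2 and 2VO 1. They held 53.9%, 57.6% and 12.7% of the Mt2 UMIs and 31.1%, 46.5% and 7.61% of the Mt1 UMIs. Of the UMIs of all genes they held 3.41%, 7.14% and 0.975%. CPECs were 11.5%, 6.09% and 11.8% of the cells and held 82.9%, 62.6% and 88.2% of the Mt3 UMIs. Of the UMIs of all genes CPECs held 37.9%, 24.4% and 43.6%, more than their share of cells. The level over all cells of a library thus joins its cell makeup with the level of each class. Over all cells Mt1 was 1102, 1877 and 1259 CPM, and Mt3 was 2767, 2703 and 1510 CPM. The share of ASTs and EPNs among the captured cells was lower in 2VO 1 (39 ASTs and 9 EPNs, against 207 and 72 in sham 1 and 222 and 79 in sham 2). Fewer cells in the tissue and fewer cells surviving dissociation cannot be told apart here.

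**Figure D2:**
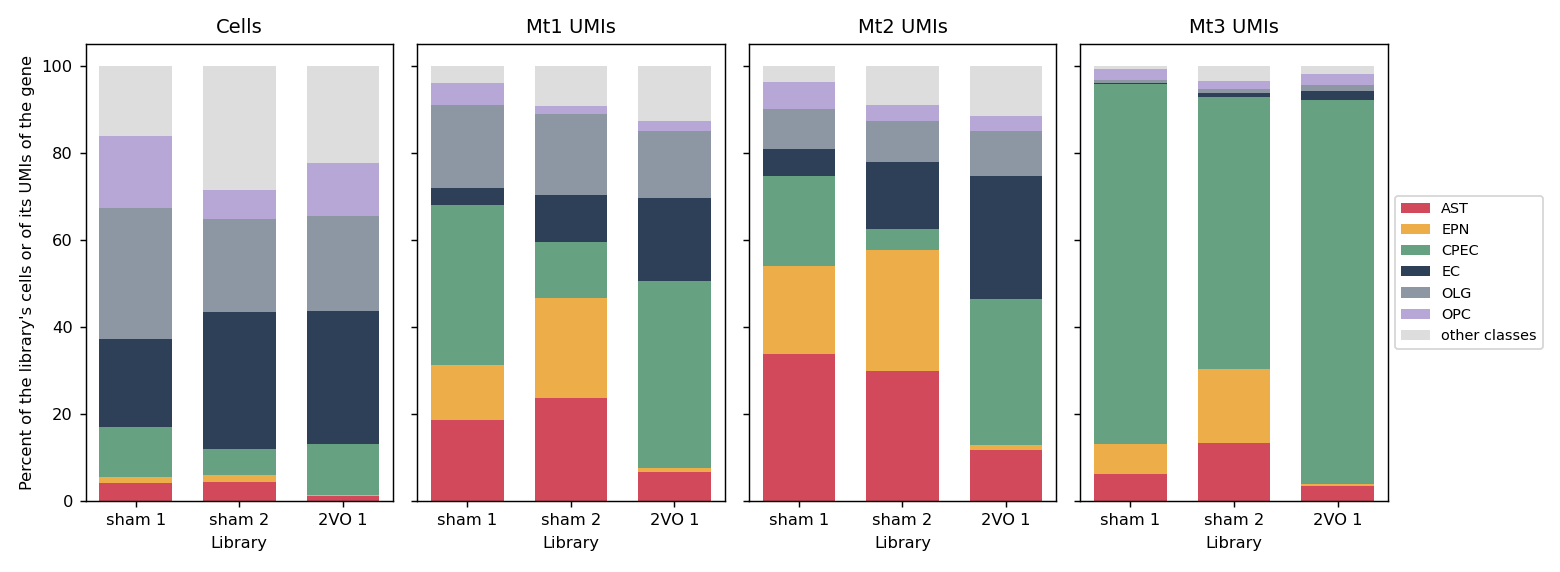
Stacked bars of the percent of each library's cells (left) and of its Mt1, Mt2 and Mt3 UMIs that each class held, with classes below the 6 named ones pooled and no error bars. CPECs hold 62.6% to 88.2% of all Mt3 UMIs, and the AST and EPN segments are smallest in 2VO 1.

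Mt1 outnumbered Mt2 in every class and library. The ratio of Mt1 to Mt2 UMIs was 5.06 to 7.04 in ASTs, 6.82 to 7.74 in EPNs and 5.95 to 7.38 in ECs, 13.1 to 22.7 in OLGs and 11.3 to 24.2 in CPECs. In NPCs it was 3.13, 2.86 and 6.67 in sham 1, sham 2 and 2VO 1, the last from 6 Mt2 UMIs. Mt3 made up 77.1% to 86.3% of the metallothionein UMIs of GLUTNs, 52.0% to 54.1% of those of OPCs and 3.73% to 4.99% of those of macrophages. Of those of CPECs it made up 84.3% in sham 1, 87.0% in sham 2 and 69.3% in 2VO 1.

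Over the 39 class and library points of the 13 classes with at least 10 cells in every library, log2(CPM + 1) of Mt1 had a Pearson r of 0.88 with Mt2 and of 0.27 with Mt3, and Mt2 had an r of 0.33 with Mt3. Without the AST points the r of Mt1 and Mt2 was 0.76. The points share libraries and classes and the r values are descriptions. Among 13159 genes, the next most like Mt1 were Eva1a, Slc39a12 (a zinc importer of the ZIP family), Paqr6 and Sdc4 (a cell surface proteoglycan), with r of 0.73 to 0.74. The genes most like Mt2 after Mt1 were Nat8f4, Gucy2e, Acat3 and Gm29508 (r of 0.75 to 0.76). Those most like Mt3 were Acsl6 (an acyl-CoA synthetase of brain lipids, 0.87), Nwd1 (0.86), Fam213a (0.85), Clu (the secreted chaperone clusterin, 0.84) and Aass (a lysine-degrading enzyme, 0.84). Without the AST points the 5 genes named for Mt3 kept r of 0.74 to 0.79, while Eva1a had 0.46 and Gucy2e 0.33.

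Within single ASTs, thinned to 1000 UMIs, the r of Mt1 with Mt3 across cells was 0.73 in sham 1, 0.73 in sham 2 and 0.71 in 2VO 1, from 207, 222 and 39 cells. In CPECs the same r was 0.21, 0.17 and 0.06. Thinned CPECs held 0.92, 0.91 and 0.96 Mt1 UMIs per cell, against 9.34, 9.76 and 7.03 in thinned ASTs. The part of counting error in the lower r of CPECs was not tested.

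**Figure D3:**
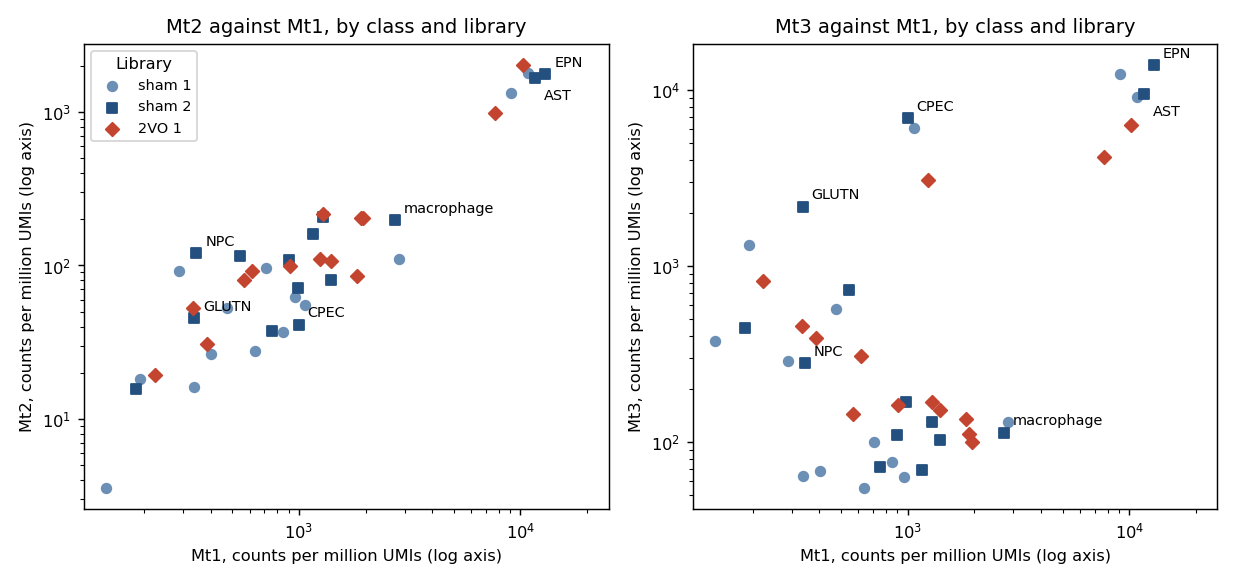
Mt2 (left) and Mt3 (right) against Mt1, each point 1 class in 1 library (CPM, log axes, 14 classes and 3 libraries), with some sham 2 points named. Mt2 rises with Mt1 over the classes. In the plot of Mt3, CPECs and GLUTNs have more Mt3 for their Mt1 than the remaining classes, while ASTs and EPNs are highest in Mt3 itself.

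The main comparison asked in which classes the members differed between 2VO 1 and the sham libraries at day 7. Counts were summed per class and library and fitted by the quasi-likelihood test of edgeR, and calls needed a fold over 1.5 and a Benjamini-Hochberg adjusted p, over all genes of the class, below 0.05. With 2 sham mice and 1 ischemic mouse, the 2VO library is assumed to vary as the sham libraries do, and a p-value cannot separate the operation from that 1 mouse. Levels in the comparison are CPM on library sizes adjusted by TMM, which lowered the log2 changes by 0.01 to 0.43 against plain CPM depending on the class. Of 38 comparisons of a member in a class, 3 were called: Mt3 lower in CPECs, Mt2 higher in CPECs and Mt2 higher in microglia. The share of all tested genes called was 9.75% in CPECs, 6.57% in microglia, 27.8% in OPCs, 11% in NPCs, 2.78% in macrophages, 1.88% in CRNs, 1.68% in GLUTNs, 1.42% in ECs, 0.0382% in ASTs and 0.0114% in VSMCs. It was 0% in OLGs, PERs and VLMCs, where DESeq2 called 1176, 3 and 0 genes and the unadjusted p of edgeR was below 0.05 for 4195, 1350 and 285. Mt1 was called in 0 of 13 classes by edgeR and by DESeq2, with an unadjusted p under 0.05 in 5.

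In CPECs, Mt3 fell from 6338 CPM in sham 1 and 7829 in sham 2 to 2599 in 2VO 1 (log2 fold change -1.45 ± 0.24 SE, adjusted p = 0.000246). The 2VO library lay far below both sham libraries, which differed little from each other. Against either sham library alone, the log2 difference was -1.60 and -1.29. The call held in all 9 tested alternatives, with log2 changes of -1.49 to -1.09 and adjusted p from 3.48e-11 to 0.0218. At an equal depth of 1000 UMIs per cell, CPECs held 5.04, 5.51 and 2.72 Mt3 UMIs per cell, so the lower level was also present at equal depth. The summed CPEC markers were 210072, 201460 and 208815 CPM in these cells, of which Ttr, the carrier of thyroid hormone in cerebrospinal fluid, alone gave 206840, 198765 and 203508. Each of the 7 other CPEC markers was highest in 2VO 1, among them Folr1 (518, 430 and 1281 CPM), Kl (834, 611 and 1266 CPM) and Kcnj13 (448, 366 and 729 CPM), and their part in the change of Mt3 was not tested. The markers of EPNs summed to 593, 522 and 581 CPM and those of ASTs to at most 63.5 CPM.

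The CPECs fell into 2 clusters, and Mt3 was lower in both. The clusters differed in depth, with medians of 38248 UMIs per cell in that led by Ttr and Prlr and 2477 in the other. The part of depth in differences between the clusters was not tested. In the cluster led by Ttr and Prlr (479, 207 and 261 cells of sham 1, sham 2 and 2VO 1), the log2 change was -1.40 ± 0.26 (adjusted p = 0.00200). In that led by Trpm3, Krt18 and Kcnj13 (108, 105 and 200 cells), it was -1.93 ± 0.17 (adjusted p = 3.2e-05). The lower level was therefore present within each cluster. These fits within clusters were chosen after the data were seen.

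Mt2 rose in CPECs from 57.9 and 46.5 to 93.6 CPM (log2 fold change 0.84 ± 0.22, adjusted p = 0.0106), while Mt1 was 1119, 1127 and 1055 CPM (-0.09 ± 0.22, adjusted p = 0.858). Within clusters, Mt2 rose in that led by Ttr and Prlr, at 54.3, 45.8 and 99.2 CPM (0.98 ± 0.22, adjusted p = 0.00563). In the Trpm3 and Krt18 cluster, Mt2 was 107, 52.2 and 30.9 CPM (-1.39 ± 0.45, adjusted p = 0.0728) from 160, 54 and 20 UMIs. Mt1 fell in that cluster, from 1556 and 831 to 526 CPM (-1.18 ± 0.29, adjusted p = 0.0183), and was 1086, 1172 and 1104 CPM in the other. Scaling by total counts turned the Mt1 change over all CPECs to 0.26, and the call for Mt2 was lost with cells thinned to 1000 UMIs (0.41, adjusted p = 0.638) or with DESeq2 size factors (0.83, adjusted p = 0.0513).

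**Figure D4:**
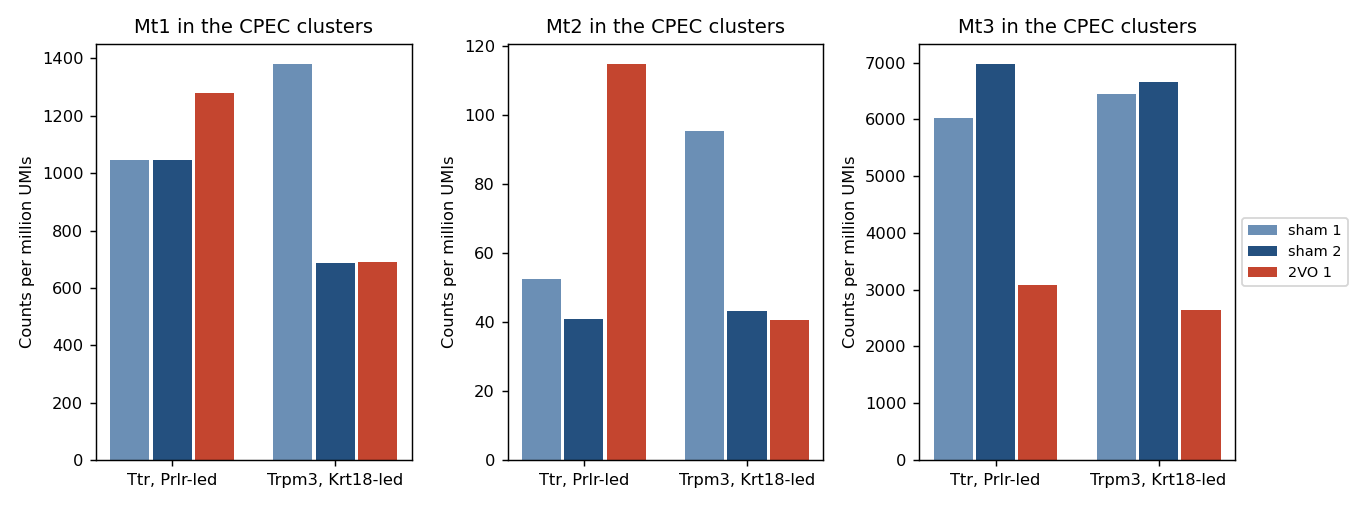
Bars of Mt1, Mt2 and Mt3 (CPM, 1 bar per library, no error bar) in the 2 CPEC clusters, named by leading genes. Mt3 in 2VO 1 is below both sham libraries in each cluster, while Mt2 in 2VO 1 is above them in the Ttr and Prlr cluster and below them in the other.

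The difference of the CPEC change from the mean change of the other 12 classes was tested in 1 fit over all classes with the library as a block. For Mt3 it was -1.32 ± 0.40 on the log2 scale with an adjusted p of 0.107, so the fall was not shown to be larger in CPECs than elsewhere. The residual spread of this fit is that of the classes between the same sham mice, so classes stand in for replicates. None of the 39 such contrasts of a member was called by edgeR, the only tool run for them, and 7 had an unadjusted p under 0.05, 5 of them for Mt3. Over all genes and classes 0.124% of contrasts were called.

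Mt3 was also the lowest in 2VO 1 in the remaining classes that make much of it, without a call. In ASTs it was 9174, 10142 and 6051 CPM, a log2 change of -0.67 ± 0.22 (adjusted p = 0.261), and thinned ASTs held 7.28, 8.38 and 4.54 Mt3 UMIs per cell. In GLUTNs it was 1341, 2557 and 770 CPM (-1.34 ± 0.85, adjusted p = 0.459) with 15 cells in 2VO 1. EPNs were not tested because 2VO 1 held 9 of them, at 4183 CPM and 114 Mt3 UMIs. In ASTs, Mt1 was 10940, 12487 and 9793 CPM (-0.26 ± 0.23) and Mt2 1811, 1775 and 1934 CPM (0.11 ± 0.19), neither called. For Mt2 the ASTs of 2VO 1 thus stood close to those of the sham mice. For Mt1, a single cell held 24.4% of the UMIs of the 39 ASTs of 2VO 1. Without the top cell of each library, the plain Mt1 level was 10626, 11332 and 8395 CPM. Thinned ASTs held 9.34, 9.76 and 7.03 Mt1 UMIs per cell, lowest in 2VO 1, and these differences were not tested.

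In microglia, the resident macrophages of the brain, Mt2 rose from 39.4 and 39.9 to 90.8 CPM (log2 fold change 1.19 ± 0.27, adjusted p = 0.0446) on 39, 30 and 82 UMIs. The sham libraries were nearly equal and 2VO 1 stood above both. Mt3 was 81.8, 77.1 and 148 CPM (0.90 ± 0.24, adjusted p = 0.0645) and Mt1 906, 810 and 831 CPM (-0.05 ± 0.27, adjusted p = 0.923). The call for Mt2 was lost at Leiden resolution 2.0 (1.30, adjusted p = 0.0581), with metallothionein genes among the clustering genes (1.13, adjusted p = 0.106) and in DESeq2's Wald test (1.22, adjusted p = 1.00). Markers of other cells moved with these values: of 17 marker lists of other cells, 16 were highest in 2VO 1 in microglia. The EC markers summed to 487, 675 and 3560 CPM, the CPEC markers to 2274, 961 and 5279 CPM, the OLG markers to 5891, 649 and 8497 CPM and the AST markers to 235, 275 and 381 CPM. ECs of 2VO 1 held 216 CPM of Mt2. The part of these markers' cells in the levels of Mt2 and Mt3 was not tested. The microglia markers themselves summed to 15157, 16931 and 8228 CPM, lowest in 2VO 1.

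In OPCs all 3 members were lower in 2VO 1 without a call, in a class where 27.8% of genes were called. Mt1 was 512, 562 and 301 CPM (-0.83 ± 0.30, adjusted p = 0.0567), Mt2 56.7, 120 and 47.9 CPM (-0.85 ± 0.39, adjusted p = 0.119) and Mt3 617, 751 and 412 CPM (-0.73 ± 0.32, adjusted p = 0.107). The clusters behind this class differed: 373 of 480 OPCs of 2VO 1 lay in a cluster led by Pcdh15, Pdgfra and Vcan, which held 49 of 847 and 37 of 340 cells of the sham libraries. Within the cluster led by Cdo1, C1ql1 and Lhfpl3, Mt3 was 929, 953 and 986 CPM (0.07 ± 0.22) and Mt1 327, 431 and 392 CPM (0.05 ± 0.23). Within the Pcdh15 cluster, Mt3 was 497, 609 and 298 CPM (-0.89 ± 0.52, adjusted p = 0.305) and Mt1 420, 548 and 302 CPM (-0.67 ± 0.51, adjusted p = 0.439). Within a cluster led by Bmp4, Mt1 was 828, 1067 and 276 CPM (-1.77 ± 0.29, adjusted p = 0.129) and Mt3 80.4, 84.5 and 221 CPM (1.43 ± 0.28, adjusted p = 0.153). The Mt1 level of 2VO 1 was thus below both sham libraries in the Pcdh15 and Bmp4 clusters and between them in the Cdo1 cluster. Its Mt3 level was below both in the Pcdh15 cluster and above both in the Cdo1 and Bmp4 clusters. The remaining OPC cluster, led by Pclaf, Ube2c and Top2a, was not fitted because 2VO 1 held 7 of its cells. Its plain levels were 206, 579 and 185 CPM of Mt1 and 604, 511 and 462 CPM of Mt3. The last value came from 15 Mt3 UMIs. These differences between clusters were not tested.

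The vascular classes had no call in the main comparison. In VSMCs, the contractile cells of arterioles, Mt1 was 984, 1045 and 1905 CPM (0.91 ± 0.22, adjusted p = 0.275) and Mt2 63.8, 75.6 and 197 CPM (1.48 ± 0.25, adjusted p = 0.172). For both genes 2VO 1 stood above the sham libraries, which lay close together. Mt2 was called higher in 3 and Mt1 in 2 of 9 alternatives, with adjusted p down to 0.000176 and 0.0134. In VLMCs, fibroblast-like cells of the meninges and vessels, Mt1 was 358, 1117 and 2129 CPM (1.51 ± 0.58, adjusted p = 0.730), and the sham libraries were further apart in ratio than sham 2 and 2VO 1. It was called in 2 of 9 alternatives. In ECs, Mt1 was 716, 1360 and 1208 CPM and in PERs 409, 1280 and 550 CPM, so in both classes 2VO 1 lay between the sham libraries. The sham libraries differed in the same direction in OLGs (705 and 1519 CPM, with 1170 in 2VO 1).

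**Figure D5:**
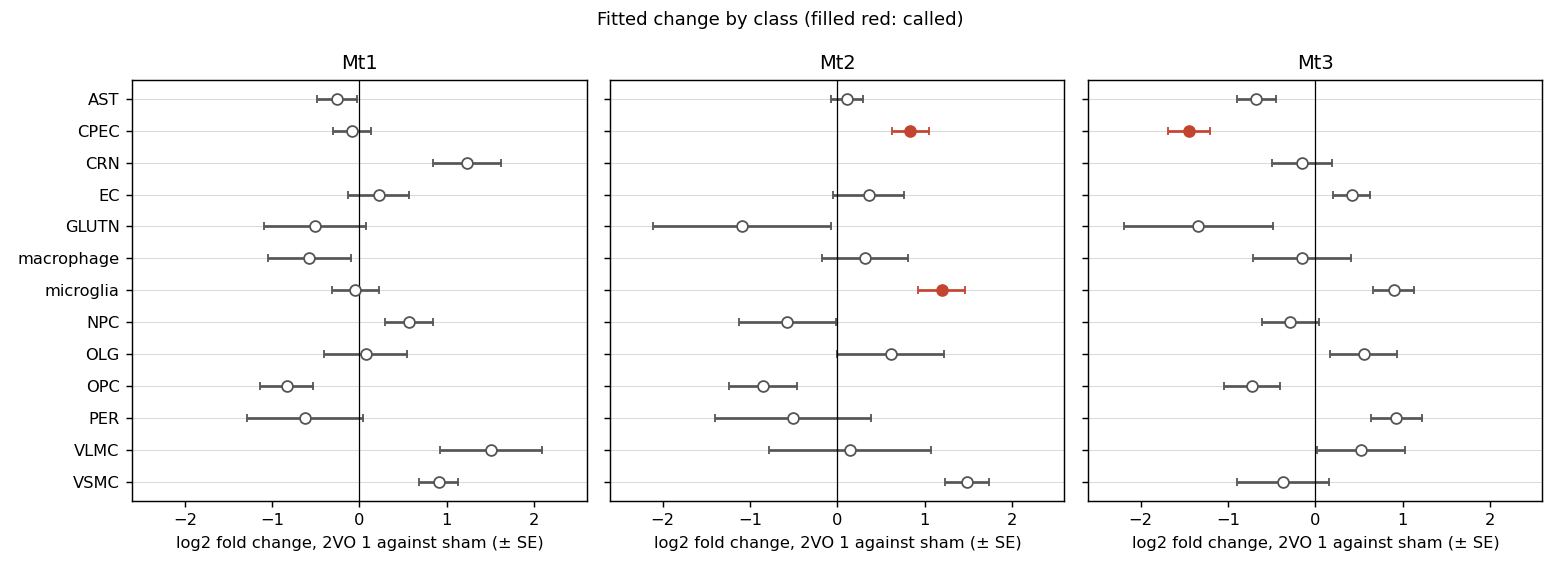
Fitted log2 fold change of 2VO 1 against the 2 sham libraries (edgeR, bars are ± 1 SE) for each member in 13 classes, filled red where called. The called points are Mt3 at -1.45 and Mt2 at 0.84 in CPECs and Mt2 at 1.19 in microglia, and Mt2 in CRNs was under the filter on low counts.

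Mt1 also differed between the clusters of 1 class. The EC cluster led by Hspb1, Klf2 and Apold1, with the heat shock genes Hspa1a and Hspa1b among its leading genes, had the most Mt1 of the 6 EC clusters in every library, at 1221, 1883 and 2279 CPM in sham 1, sham 2 and 2VO 1. The cluster led by Lcn2, Lrg1 and Ackr1, genes of inflamed venules, had 586, 777 and 1443 CPM of Mt1 and 107, 49.3 and 269 CPM of Mt2. The cluster led by Slc7a1 and Hmcn1 had 638, 901 and 831 CPM of Mt1. These levels are plain CPM within clusters and were not tested. Macrophages, which at a finer clustering also held cells with T and NK cell markers, had 3159, 3234 and 2149 CPM of Mt1 (-0.57 ± 0.48, adjusted p = 0.836), on the TMM scale of the comparison. In sham 1 a single cell held 48.0% of the Mt1 UMIs of the 31 macrophages, and in sham 2 and 2VO 1 24.1% and 17.4%. Without that cell in each library, a setting chosen after the data were seen, the plain level was 1590, 2143 and 1631 CPM, so 2VO 1 then lay between the sham libraries. The share of macrophages with Mt1 after thinning was 41.9%, 40.8% and 68.5%, highest in 2VO 1, where the level was lowest.

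Among neurons, CRNs had 151, 218 and 424 CPM of Mt1 (1.23 ± 0.39, adjusted p = 0.0975) from 38, 35 and 25 UMIs. NPCs had 329, 393 and 533 CPM of Mt1 (0.57 ± 0.28, adjusted p = 0.196). Neither was called. The CPEC markers were also highest in 2VO 1, summing to 1211, 1029 and 4009 CPM in CRNs and 1112, 680 and 5651 CPM in NPCs, and their part was not tested.

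Genes that work with metallothioneins were counted from 3 lists. Of 25 zinc transporter genes with Mtf1, 11 of 172 gene and class tests were called higher and 0 lower by edgeR, with 4 tests fitted lower at an unadjusted p under 0.05. These higher calls were 6.40% of the list's tests, beside 2.53% of all gene and class tests called higher, 3.25% called lower and 5.78% called in either direction. Of the 11, 5 were in OPCs, where 17 of the list's genes were tested. Of all 12597 genes tested in OPCs, 1523 were called higher and 1976 lower, together 27.8%. Slc30a1, the zinc exporter of the plasma membrane and a known MTF1 target, was higher in microglia (18.2, 26.6 and 94.2 CPM, log2 fold change 2.09 ± 0.33), OPCs (28.4, 28.6 and 71.0 CPM, 1.32 ± 0.24) and NPCs (9.29, 11.0 and 80.0 CPM, 2.98 ± 0.98). In the 32 NPCs of 2VO 1 a level of 80.0 CPM stands for 6 UMIs, and the CPEC markers were also highest in that library. In CPECs, where Mt3 was lower, Slc30a1 was 16.2, 14.0 and 19.9 CPM (0.38 ± 0.23) and was not called. The zinc importer Slc39a10 was higher in CPECs (1.07 ± 0.24), microglia (1.76 ± 0.26), macrophages (2.02 ± 0.61) and OPCs (0.82 ± 0.23), and its relative Slc39a6 in CPECs (0.85 ± 0.26). The importers Slc39a14, Slc39a3 and Slc39a8 were called higher in OPCs, by 1.49, 0.91 and 2.40. In OPCs the list's median log2 change was 0.38 over 17 genes tested, beside 0.03 over all genes.

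Of the 12 copper genes, 4 tests were called higher (3.45%) and 6 lower (5.17%) out of 116, beside the same 2.53% and 3.25%, and 3 of the lower calls were in OPCs. Atox1, the chaperone that hands copper to its export pumps, fell in CPECs from 1915 and 2279 to 805 CPM (-1.38 ± 0.24, adjusted p = 0.000313), and in NPCs (-1.38 ± 0.45). Cox17, which carries copper to cytochrome oxidase, fell in CPECs (265, 363 and 145 CPM, -1.12 ± 0.24), and the copper handling genes Ccs, Commd1 and Sco2 fell by 1.22, 0.97 and 1.02 on the log2 scale in OPCs. Ceruloplasmin (Cp), a secreted copper ferroxidase, made up all 4 higher calls, in CPECs, ECs, microglia and OPCs. In ECs it was 75.6, 113 and 288 CPM (1.60 ± 0.24).

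Of the 14 glucocorticoid-induced genes, 4 tests were called higher (3.12%) and 2 lower (1.56%) out of 128, beside 2.53% and 3.25% over all genes. In microglia, where Mt2 rose, Klf9 was higher (2.00 ± 0.35) and Sgk1 (1912, 2221 and 581 CPM, -1.83 ± 0.31) and Tsc22d3 (399, 485 and 194 CPM, -1.19 ± 0.28) were lower. Sgk1, a kinase of ion transport, was higher in NPCs (13.4, 8.25 and 227 CPM) and macrophages (145, 94.1 and 411 CPM), and the clock gene Per1 in OPCs (14.3, 17.7 and 54.8 CPM). The list did not move 1 way in microglia. The median log2 change of its 12 tested genes in CPECs was -0.03, beside 0.01 over all genes.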

How the data were processed

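Hippocampal cells of single mice were captured and sequenced with the 10x Single Cell 3′ chemistry. According to the methods, the authors aligned the reads to mm10 with Cell Ranger and deposited whole-number UMI counts per gene and barcode for sham 1, sham 2 and 2VO 1. The submitters' processing notes also name Seurat 3.2.2. For 2VO replicate 2, only barcodes and genes were at hand, and it was not analysed here. Barcodes with at least 650 genes were kept, the limit of the study's methods. Cells were clustered with scanpy 1.11.5 (2000 variable genes without metallothioneins, 30 components, 15 neighbours, Leiden resolution 1.0), and the clusters were named when at least 3 of a cell type's markers were detected and no other type led. This naming rule was changed once after the clusters were seen. Doublets were kept in the main result. An alternative removed cells with a Scrublet score over 0.25, because the automatic limit marked 1 cell of 2VO 1.

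Counts were summed per class and library. CPM without TMM describes levels, and edgeR 4.0.16 (filterByExpr, TMM, quasi-likelihood test) in R 4.3.3 compared 2VO 1 with both sham libraries in the 13 classes with at least 10 cells in each library. A second fit over these classes, with the library as a block, tested each class against the mean of the others. DESeq2 1.42.0 was an alternative, and both fits were tested on simulated data. Named genes were the members, the list genes called, and the 5 genes with the highest r to each member at 10 CPM or more. The members, marker lists and gene lists were chosen with earlier results of these data known. The p-values of the class fits rest on the spread between the sham mice, as 2VO had 1 mouse. In the second fit each class had its own 2VO term, which left 12 residual degrees of freedom. These are differences between classes in the same sham mice, so classes stand in for replicates there. Promoters and gene positions come from RefSeq and GENCODE on GRCm38, and all 3 members were matched by symbol.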

Additional observations from a re-analysis of the deposited data

How the results depend on the processing

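Mt3 in CPECs kept its call in all tested alternatives. For Mt2 in CPECs the log2 change was 0.83 with DESeq2 size factors and 0.41 in thinned cells, both uncalled, and -1.39 in the Trpm3 and Krt18 cluster. For Mt2 in microglia it was uncalled at 1.22 (DESeq2 Wald test), 1.30 (Leiden resolution 2.0) and 1.13 (metallothionein genes used for clustering). The 3 called comparisons (2 higher, 1 lower) became 7 with total counts (6 higher), 10 without the filter (6 higher, 4 lower), 6 without doublets (4 higher, 2 lower) and 7 in thinned cells (4 higher, 3 lower). With total counts, calls over all CPEC genes went from 406 higher and 844 lower to 1421 and 276. In VLMCs they went from 0 to 62 higher and 4 lower. For the unfiltered, doublet-free and thinned settings the share of all genes called was not counted. Gained calls are therefore not read as results about the members. Calls were gained by Mt1 in CRNs, NPCs, OPCs, VLMCs and VSMCs and Mt2 in OPCs (2 of 9 alternatives each), Mt2 in VSMCs and Mt3 in microglia (3 each) and Mt3 in ASTs, OLGs and OPCs (1 each). DESeq2 size factors, DESeq2's Wald test and resolution 2.0 each left 1 higher and 1 lower call. With total counts, uncalled estimates changed sign for Mt1 in CPECs (0.26) and microglia (0.19) and for Mt3 in NPCs (0.14). Without the filter they did so for Mt2 in ASTs (-0.0010) and Mt1 in OLGs (-0.048), and with at least 200 genes per cell for Mt3 in macrophages (0.39) and Mt1 in microglia (0.78). Mt3 in macrophages also turned to 0.025 at resolution 2.0 and to 0.19 with metallothionein genes used for clustering, where Mt1 in microglia was 0.064. In thinned cells Mt3 was 0.33 in CRNs and 0.55 in NPCs, and Mt1 was 0.035 in macrophages and 0.48 in microglia. Within OPC clusters, Mt3 was 0.068 (Cdo1-led) and 1.43 (Bmp4-led), Mt1 0.052 (Cdo1-led) and Mt2 0.020 (Pcdh15-led). The causes were not tested. Contrasts of a class with the others had 0 member calls in every setting run. Leaving out a sham library left no residual degrees of freedom, and these values have no test. No paired analysis was possible because the libraries analysed share only 1 replicate number between the groups. Depth limits Mt2 most: classes with under 10 UMIs in 2VO 1 (CRNs, GLUTNs and NPCs) carry wide errors.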

Other observations

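The barcodes under 650 genes, which entered no comparison, also held metallothionein RNA. There were 819, 1516 and 1449 of them in sham 1, sham 2 and 2VO 1. Mt1 was 2782, 1179 and 1148 CPM in these barcodes, beside 1102, 1877 and 1259 CPM in the kept cells, and Mt3 was 2728, 1345 and 685 CPM. Mt2 was 483, 159 and 151 CPM in them. In 2VO 1 the level of each member in these barcodes lay below that of both sham libraries. These levels are over all such barcodes, whatever their cell type.

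The unnamed neuronal cluster, of 49, 200 and 30 cells, had 537, 471 and 429 CPM of Mt3 and 362, 134 and 189 CPM of Mt1. In sham 1 a single cell held 68.7% of the Mt1 and 58.3% of the Mt3 UMIs, and without it the levels were 123 CPM of Mt1 and 243 CPM of Mt3. Among its 279 cells, Mt3 was seen in 59.2%, 49.0% and 63.3% of the cells per library, at medians of 6135, 2590 and 3414 UMIs.

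The EC cluster led by Hbb-bs, Hmcn1 and Gm26870, with the lowest median of the EC clusters (1462 UMIs per cell), had 466, 615 and 440 CPM of Mt3, or 232, 466 and 277 CPM without its top cell in each library. It also had 23233, 36575 and 17918 CPM of Ttr, the leading RNA of CPECs. In the EC cluster led by Plvap and Igfbp3, Mt3 was 140, 259 and 174 CPM on 11, 14 and 11 UMIs. In the 4 remaining EC clusters Mt3 was 45.3 to 90.9 CPM and Ttr 756 to 2676 CPM. Mt3 and Ttr were thus high in the same EC cluster, and the part of CPEC RNA in its Mt3 level was not tested.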
